A study of Mus musculus with 4 samples.

Results

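The genes described here are 44 interferon-stimulated genes, chosen by symbol as receptors, sensors, signalling factors and targets of the type I and type II interferon response, and all 44 were among the 24346 genes of the tables. Their expression was measured by RNA-seq in *in vitro* MDSCs, immature myeloid cells obtained by culturing bone marrow cells of C57BL/6J mice (female, 6 to 8 weeks of age) for 4 days with 40 ng/ml GM-CSF, a growth factor for myeloid cells. Control cultures (n = 2) received GM-CSF alone. G-CSF cultures (n = 2) received GM-CSF and 5 ng/ml G-CSF, the cytokine that drives granulocyte production, so that the comparison asks how gene expression differs when G-CSF is added. The cultures are called biological replicates, but separate animals are not stated, so the p-values refer to variation between these cultures, not between animals. With 2 cultures per group, limma, the method used here, drew the variance of each gene partly from genes of similar expression level. RNA came from whole cultures. The labels describe RNA extraction from liver, whereas the study's methods describe cells; the hepatocyte genes *Alb*, *Apoa1*, *Ttr*, *Cyp3a11* and *Fgb* were listed at 0 in all 4 libraries, and *Serpina1a* was at most 0.169 FPKM, whereas the granulocyte gene *S100a8* was at about 25565 FPKM or more and the monocyte gene *Ly6c2* at about 1000 FPKM or more. Values were taken as FPKM (fragments normalised for transcript length and library size) and are given for replicate 1, then replicate 2, of each group, and the steps between low values put the depth at about 13.4 and 14.15 M mapped reads for the Control libraries and 12.45 and 15.6 M for the G-CSF libraries.

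Interferons are secreted antiviral cytokines. Type I interferons bind the receptor made of IFNAR1 and IFNAR2 and act at the interferon-stimulated response element (ISRE) of target promoters, whereas interferon-gamma binds IFNGR1 and IFNGR2 and acts at gamma-activated sites (GAS). The targets include proteins that sense foreign nucleic acid, degrade or trap viral RNA and restrict viral entry. Myeloid cells both produce and answer interferons, and many of the targets keep a basal level without added interferon.

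With G-CSF, *Irf7*, *Ifitm6*, *Ifi35*, *Oasl2*, *Zbp1*, *Cmpk2* and *Gbp2* were lower and *Ifitm1* and *Ifitm3* were higher. The differences of the receptor chains were not separated from 0 by the test. The RNA is from bulk cultures, in which fewer cells of a type and less RNA per cell cannot be told apart. Of the 44 members, 41 had enough reads to be tested (an estimated 10 reads in 2 libraries and 15 in all), and 9 of the 41 (22%) passed an adjusted p under 0.05 (limma on log2(FPKM + 0.1), two-sided, Benjamini-Hochberg over 12026 genes), 7 lower and 2 higher. The same threshold was passed by 23.9% of all genes tested, 11.4% lower and 12.5% higher. Lower calls made up 17.1% of the members tested and higher calls 4.88%. No member differed by more than 2-fold in addition to that adjusted p in limma, a stricter call made for 1.46% of all genes. An unadjusted p under 0.05 in limma was found for 19 of the 41 members and for 4661 of the 12026 genes. The estimate was below 0 for 34 of the 41 members (82.9%), against 49.9% of all genes, and the median log2 fold change (G-CSF minus Control, on the log2(FPKM + 0.1) scale) was -0.25 for the members and 0.001 for all genes. Both G-CSF libraries lay below both Control libraries for 22 of the 41 members (53.7%, against 32.6% of all genes) and above both for 4 (9.76%, against 33.6%).

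These counts depended on single libraries and on the variance model. Without Control replicate 1, 5 members passed, 2 of them lower, and without Control replicate 2, 13 passed, 11 of them lower; without G-CSF replicate 1 or 2, 9 and 6 passed, of which 7 and 3 were lower. Of all genes, 12%, 14.7%, 12.8% and 15.8% passed in these 4 fits, in the same order. In these fits the lone library of a group was taken to vary like the other group. *Ifitm1*, *Ifitm3*, *Ifitm6* and *Irf7* passed whichever of the 4 libraries was left out, and the other 5 did not. Where the prior variance in limma was not allowed to vary with expression level, 0 of the 41 members and 0.424% of all genes passed, and the adjusted p of the 9 then ranged from 0.052 to 0.124.

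**Figure D1:**
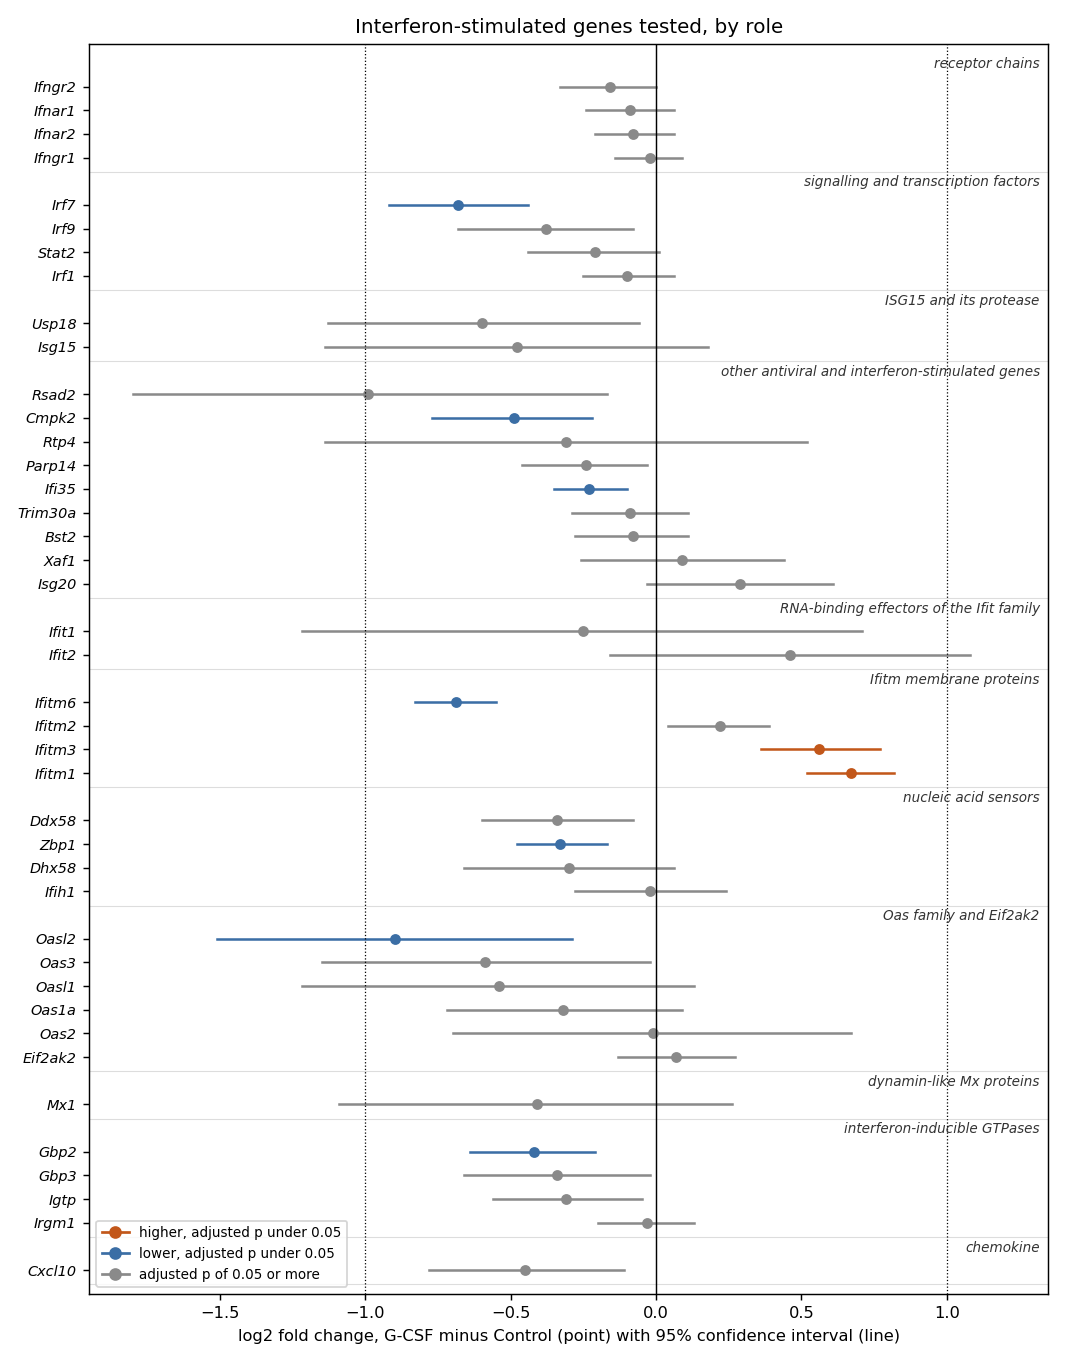
Log2 fold change, G-CSF minus Control (n = 2 each), of the 41 interferon-stimulated genes tested, grouped by role; points are limma estimates, lines 95% confidence intervals, and dotted lines mark a 2-fold difference. Most points lie left of 0 (34 of 41), 7 pass lower (blue) and 2 pass higher (orange), both of these in the Ifitm family.

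Among the receptor chains, none of the 4 passed the adjusted p in limma, and none had an unadjusted p under 0.05. *Ifnar1* stood at 19.6 and 20.3 FPKM without G-CSF and 18.2 and 19.2 FPKM with it (log2 fold change -0.09, 95% confidence interval -0.24 to 0.06). *Ifnar2* stood at 59.0 and 63.7 FPKM without G-CSF and 59.1 and 57.2 FPKM with it (-0.08, -0.21 to 0.06). The groups overlapped for *Ifnar2* and did not for *Ifnar1*, and *Ifnar2* was about as abundant as the chains of the interferon-gamma receptor. *Ifngr1*, the ligand-binding chain of that receptor, was at 60.4 and 59.8 FPKM without G-CSF and 60.5 and 57.7 FPKM with it (-0.02, -0.14 to 0.09). *Ifngr2*, its signalling partner, was at 67.9 and 65.0 FPKM without G-CSF and 55.8 and 63.2 FPKM with it (-0.16, adjusted p = 0.132 in limma), and, of the fits with a library left out, passed only without G-CSF replicate 2 (adjusted p = 0.042 in limma, up to 0.491 in the others). For *Ifnar2*, 7.1% of 75-base windows of its transcripts also occur in the gene model *Gm21970*. A small part of its reads may thus not be assigned with certainty, but whether the models overlap in the genome was not examined.

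Of the 4 signalling and transcription factors, 1 passed. *Irf7*, the factor that amplifies type I interferon production, was at 8.91 and 7.87 FPKM without G-CSF and 5.15 and 5.24 FPKM with it. Both G-CSF libraries were below both Control libraries, and the group means were 8.39 ± 0.735 and 5.20 ± 0.0651 FPKM (SD, n = 2). *Irf7* was 1.6-fold lower with G-CSF (log2 fold change -0.68, SE 0.099, adjusted p = 0.00763 in limma; -0.77 to -0.59 with a library left out). *Stat2*, a subunit of the complex that binds the ISRE, was at 21.2 and 18.4 FPKM without G-CSF and 18.1 and 16.0 FPKM with it (-0.21, adjusted p = 0.147 in limma). *Irf9*, the DNA-binding subunit of the same complex, was at 18.8 and 15.3 FPKM without G-CSF and 14.2 and 11.9 FPKM with it (-0.38, adjusted p = 0.0681 in limma), and passed without Control replicate 2 or without G-CSF replicate 1 (lowest adjusted p = 0.0325 in limma), while it was up to 0.242 in limma without one of the other 2 libraries. For both genes the groups did not overlap, but the nearest values of the groups lay closer together than the replicates of Control. *Irf1*, a factor induced by interferon-gamma, had a log2 fold change of -0.10.

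Of the 4 nucleic acid sensors, *Zbp1* passed and the RNA helicases of the RIG-I family did not. *Zbp1*, a sensor of Z-form nucleic acid that can start necroptosis, was at 23.9 and 22.6 FPKM without G-CSF and 19.1 and 17.97 FPKM with it. It was 1.25-fold lower with G-CSF (-0.33, SE 0.064, adjusted p = 0.0166 in limma) with no overlap between groups, and it was lost without Control replicate 1 or without G-CSF replicate 2 (adjusted p up to 0.0745 in limma). *Ddx58* (RIG-I) and *Dhx58* (LGP2) had log2 fold changes of -0.34 and -0.30 with adjusted p of 0.0625 and 0.192 in limma, which became 0.0286 and 0.0404 without Control replicate 2 but rose to as much as 0.247 and 0.713 with another library left out (log2 fold changes from -0.48 to -0.20 and from -0.51 to -0.08), and *Ifih1* (MDA5) had one of -0.02.

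The Ifitm family, small membrane proteins that restrict the entry of enveloped viruses, was the most abundant group of members and was split in direction. *Ifitm1* was at 1154 and 1072 FPKM without G-CSF and 1819 and 1715 FPKM with it. Both G-CSF libraries were above both Control libraries, and *Ifitm1* was 1.59-fold higher with G-CSF (0.67, SE 0.062, adjusted p = 0.00319 in limma; group means 1113 ± 58.2 and 1767 ± 73.3 FPKM, SD, n = 2). *Ifitm3*, the member best known for restricting influenza virus, was at 506 and 439 FPKM without G-CSF and 741 and 655 FPKM with it. *Ifitm3* was 1.48-fold higher with G-CSF (0.56, SE 0.087, adjusted p = 0.00867 in limma), again without overlap. *Ifitm6* went the other way, with 391 and 375 FPKM without G-CSF and 249 and 226 FPKM with it, and was 1.62-fold lower (-0.69, SE 0.058, adjusted p = 0.00247 in limma). *Ifitm2* was at 421 and 369 FPKM without G-CSF and 475 and 443 FPKM with it (0.22, adjusted p = 0.0727 in limma, and from 0.12 to 0.31 with a library left out). For this gene, 42.0% of the 75-base windows of its transcripts recur in other gene models, mainly *Gm45717*. Its level may therefore be uncertain, but whether the models overlap in the genome was not examined. The ratio of *Ifitm1* to *Ifitm6* FPKM was 2.95 and 2.86 in the Control libraries and 7.32 and 7.60 in the G-CSF libraries. The directions of *Ifitm1*, *Ifitm3* and *Ifitm6* were the same under upper-quartile and median-ratio scaling.

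Together the 4 Ifitm genes held 80.3% and 80.2% of the summed FPKM of the 44 members without G-CSF and 86.0% and 85.8% with it. The sum over all members was 3080 and 2812 FPKM without G-CSF and 3820 and 3543 FPKM with it, which is 0.460% and 0.438% of all FPKM without G-CSF and 0.595% and 0.549% with it. For the other 40 members the sum was 608 and 558 FPKM without G-CSF and 537 and 504 FPKM with it. The sum over all members was thus higher in both G-CSF libraries and that of the other 40 lower; neither sum was tested.

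**Figure D2:**
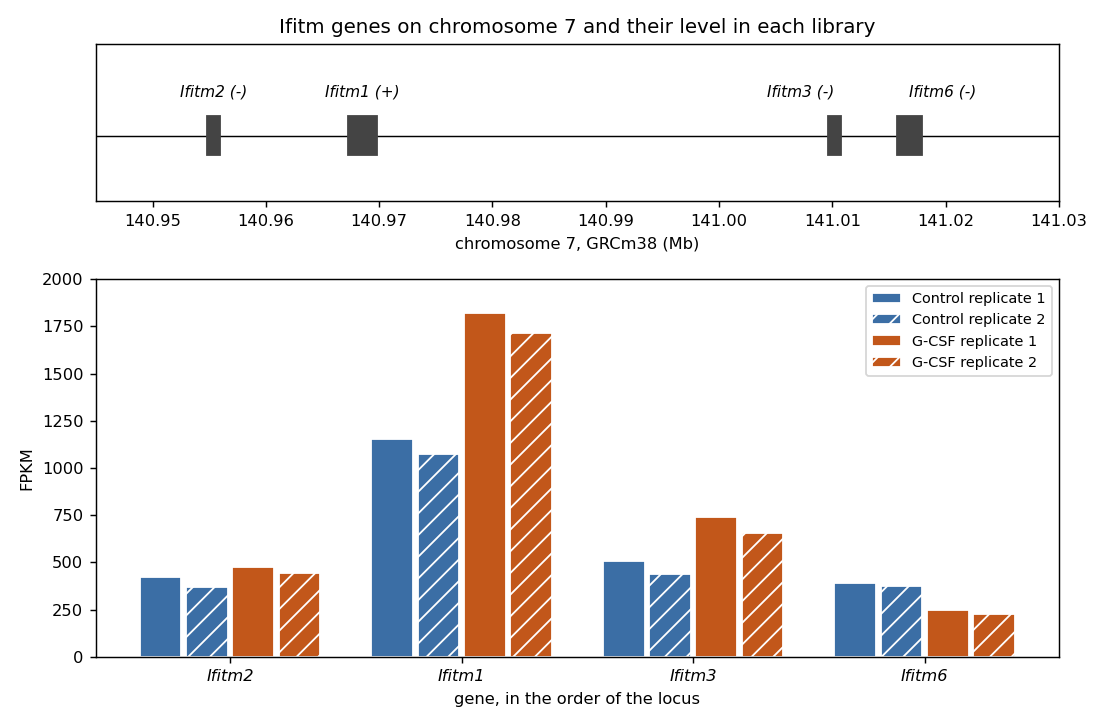
Upper panel, position and strand of the 4 Ifitm genes among the members on chromosome 7 (GRCm38, Mb); lower panel, FPKM of each gene in each library (Control blue, G-CSF orange, replicate 2 hatched). *Ifitm1* and *Ifitm3* are higher in both G-CSF libraries and *Ifitm6* is lower, from 391 and 375 FPKM to 249 and 226 FPKM.

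The Ifit family, cytoplasmic proteins that bind foreign RNA ends, was low throughout. *Ifit1* was at 1.41 and 0.580 FPKM without G-CSF and 0.925 and 0.606 FPKM with it, an estimated 46, 20, 28 and 23 reads. The Control libraries spanned both G-CSF libraries, and the log2 fold change of -0.25 had a 95% confidence interval of -1.22 to 0.71. *Ifit2* had a log2 fold change of 0.46 (adjusted p = 0.234 in limma). *Ifit3*, listed at 0.333 and 0.236 FPKM in Control and 0.179 FPKM in both G-CSF libraries, had an estimated 6.85, 5.13, 3.42 and 4.29 reads and was not tested, and 41.1% of its windows recur in *Ifit3b*. Neither of the 2 Ifit genes tested passed in limma, and neither had an unadjusted p under 0.05.

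Of the 2',5'-oligoadenylate synthetase family, enzymes that activate RNase L on double-stranded RNA, together with the RNA-activated kinase gene *Eif2ak2*, 1 of 6 genes passed. *Oasl2* was at 4.84 and 2.98 FPKM without G-CSF and 2.33 and 1.70 FPKM with it. Both G-CSF libraries were below both Control libraries, and *Oasl2* was 1.86-fold lower (-0.90, SE 0.254, adjusted p = 0.0472 in limma), which was lost with Control replicate 1 left out or G-CSF replicate 2 left out (adjusted p up to 0.153 in limma; log2 fold change from -1.24 to -0.56 with a library left out). *Oas2* was at 4.67 and 2.49 FPKM without G-CSF and 3.80 and 3.01 FPKM with it. Its log2 fold change of -0.01 had a 95% confidence interval of -0.70 to 0.67, and it turned to 0.43 without Control replicate 1 and 0.15 without G-CSF replicate 2. *Oas3*, *Oasl1*, *Oas1a* and *Eif2ak2* had log2 fold changes from -0.59 to 0.07 and did not pass; with a library left out, *Oas3* (-0.59) alone of these passed, without Control replicate 2 (-0.96, adjusted p = 0.0114 in limma; with another library left out the value reached -0.21 and the adjusted p 0.395). *Oas1a* shares 47.6% of its windows with *Oas1g*, so reads of these paralogs cannot be told apart over much of their length.

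ISG15 is a ubiquitin-like protein attached to other proteins, and USP18 both removes it and dampens type I receptor signalling. *Isg15* was at 9.67 and 5.92 FPKM without G-CSF and 6.74 and 4.32 FPKM with it, an estimated 71, 46, 46 and 37 reads. The groups overlapped, because G-CSF replicate 1 lay above Control replicate 2 (log2 fold change -0.48, 95% confidence interval -1.14 to 0.18). *Usp18* was at 5.15 and 3.83 FPKM without G-CSF and 3.54 and 2.37 FPKM with it (-0.60, adjusted p = 0.0975 in limma) and, of the fits with a library left out, passed only without G-CSF replicate 1 (adjusted p = 0.0389 in limma; log2 fold change from -0.88 to -0.32 with a library left out). *Mx1*, the gene of a dynamin-like GTPase known for blocking influenza virus, of which C57BL/6 mice carry a defective allele, was at 9.13 and 5.26 FPKM without G-CSF and 6.28 and 4.27 FPKM with it. Its log2 fold change was -0.41 (adjusted p = 0.321 in limma), with the groups overlapping in the same way as for *Isg15*; it passed without Control replicate 2 (-0.81, adjusted p = 0.0499 in limma), but the log2 fold change was -0.02 without Control replicate 1 and -0.14 without G-CSF replicate 2 (adjusted p = 0.962 and 0.771 in limma). *Mx2*, annotated as a polymorphic pseudogene in the reference strain, had an estimated 18.96, 9.949, 6.001 and 9.968 reads, just under the minimum, and was not tested. Of these 4 genes, 3 were tested, 0 passed in limma and 1 (*Usp18*) had an unadjusted p under 0.05.

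Among the interferon-inducible GTPases, which act on vacuoles that hold pathogens, 1 of 4 passed. Both G-CSF libraries were below both Control libraries for all 4, beside 32.6% of all genes. *Gbp2* was at 9.73 and 9.25 FPKM without G-CSF and 7.40 and 6.72 FPKM with it. It was 1.34-fold lower (-0.42, SE 0.089, adjusted p = 0.0208 in limma), which was lost without Control replicate 1 or without G-CSF replicate 2 (adjusted p up to 0.0837 in limma). *Gbp3* and *Igtp* had log2 fold changes of -0.34 and -0.31 with adjusted p of 0.107 and 0.0809 in limma. For *Irgm1* the value was -0.03, so that the absence of overlap went with a very small gap.

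The remaining antiviral genes comprised 10 members, of which 9 were tested and 2 passed. *Cmpk2*, a nucleoside monophosphate kinase, was at 5.05 and 4.73 FPKM without G-CSF and 3.64 and 3.26 FPKM with it. It was 1.41-fold lower (-0.49, SE 0.115, adjusted p = 0.0273 in limma), although every fit with a library left out gave an adjusted p from 0.0506 to 0.109. *Ifi35* was at 28.0 and 27.6 FPKM without G-CSF and 23.6 and 23.8 FPKM with it. The replicates of *Ifi35* lay close together, and it was 1.17-fold lower (-0.23, SE 0.052, adjusted p = 0.0254 in limma), with an adjusted p from 0.0707 to 0.105 when a library was left out. *Rsad2* (viperin), whose product makes a chain-terminating nucleotide, had the lowest estimate of the members tested, at 1.69 and 0.965 FPKM without G-CSF and 0.786 and 0.447 FPKM with it. The log2 fold change, -0.99, missed the threshold (SE 0.338, adjusted p = 0.079 in limma, an estimated 81, 49, 35 and 25 reads), and without Control replicate 2 *Rsad2* passed beyond 2-fold (adjusted p = 0.0434 in limma; with another library left out the value reached -0.61 and the adjusted p 0.297), as did *Oasl2*, which was beyond 2-fold without G-CSF replicate 1 as well. *Rtp4*, *Parp14*, *Trim30a*, *Bst2*, *Xaf1* and *Isg20* had log2 fold changes from -0.31 to 0.29, of which that of *Isg20* (0.29) passed without G-CSF replicate 2 (adjusted p = 0.0351 in limma; with another library left out the value reached 0.10 and the adjusted p 0.620). *Bst2* (tetherin), which holds budding virions at the cell surface, was the most abundant member outside the Ifitm genes. It stood at 82.2 and 73.6 FPKM without G-CSF and 78.4 and 68.7 FPKM with it. *Ifi44* had an estimated 5 reads or fewer per library and was not tested. The chemokine gene *Cxcl10* was at 3.18 and 3.48 FPKM without G-CSF and 2.61 and 2.22 FPKM with it (-0.45, adjusted p = 0.0614 in limma), without overlap.

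The first replicate of each group was the higher for most members. Control replicate 1 was above Control replicate 2 for 36 of the 41 members tested (87.8%, against 50.4% of all genes), and G-CSF replicate 1 was above G-CSF replicate 2 for 31 of 41 (75.6%, against 48.5%). The median log2 difference between the replicates was 0.18 without G-CSF and 0.14 with it, whereas it was 0.00 for all genes in Control. For 20 of the 41 members, the larger gap between replicates exceeded the gap between groups (48.8%), a share near that of all genes tested (44.8%). The gap in Control was 1.15 on the log2 scale for *Ifit1*, 0.88 for *Oas2*, 0.79 for *Mx1* and 0.70 for *Isg15*, against 0.02 for *Ifi35* and 0.06 for *Ifitm6*. The summed level of 10 dendritic cell markers was also higher in the first replicate of both groups. It was 2935 and 2495 FPKM without G-CSF and 1639 and 1321 FPKM with it. The sums of neutrophil precursor, plasmacytoid dendritic cell, T cell and B cell markers had the same order. Those of monocyte, macrophage, and mast cell and basophil markers were higher in the second replicate of both groups. The part of any of these in the spread of the members was not tested. Total FPKM was 670353.9 and 641609.7 without G-CSF and 642376.9 and 644938.9 with it.

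**Figure D3:**
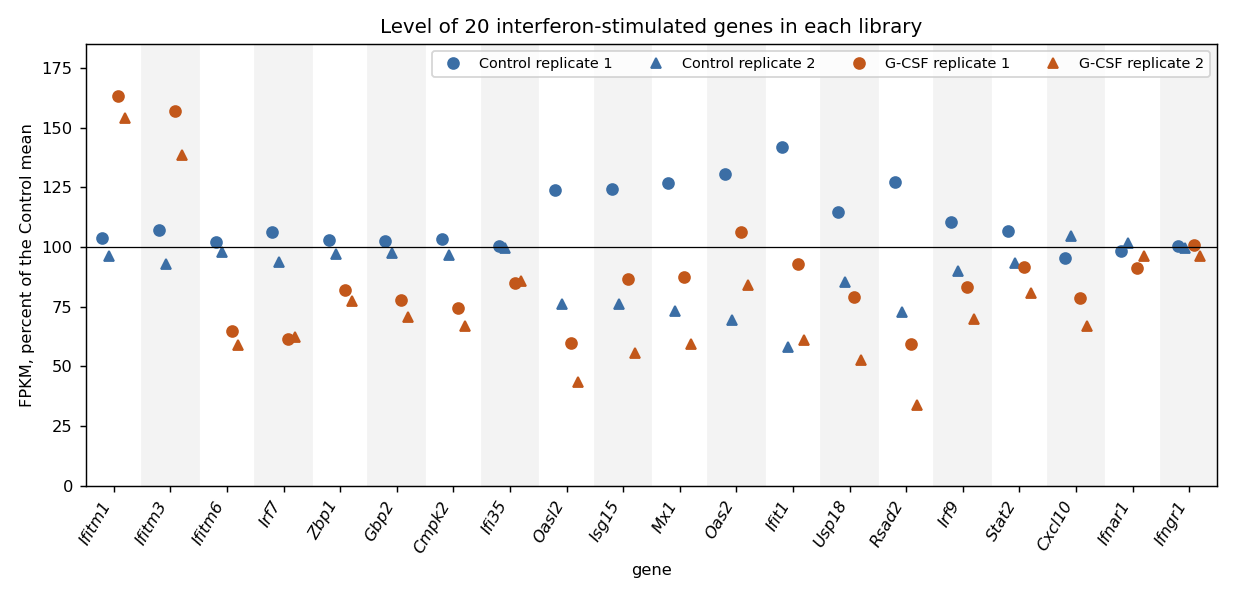
FPKM of 20 interferon-stimulated genes in each library, as a percentage of the Control mean of the gene (circles, replicate 1; triangles, replicate 2; Control blue, G-CSF orange). The replicates lie close together for *Ifi35*, *Ifitm6* and *Zbp1* and far apart for *Ifit1*, *Oas2*, *Mx1* and *Isg15*, where Control replicate 1 is the highest of the 4 libraries.

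Several members lie close together in the genome (GENCODE, GRCm38), in 8 groups with at most 200 kb between successive members. Neighbours here are successive members, and genes lying between them were not examined. The Ifitm genes span 63.1 kb of chromosome 7 (chr7:140954837-141017924), where *Ifitm6*, lower with G-CSF, lies 4928 bases from *Ifitm3*, higher with G-CSF, both on the minus strand. *Rsad2* and *Cmpk2* are divergent neighbours on chromosome 12 (chr12:26442746-26479837), with log2 fold changes of -0.99 and -0.49, of which only that of *Cmpk2* passed. *Oasl2* and *Oasl1* are neighbours on chromosome 5 (chr5:114896936-114937915) with values of -0.90 and -0.54, and *Gbp3* and *Gbp2* on chromosome 3 (chr3:142560026-142638008) with values of -0.34 and -0.42. *Ifnar2*, *Ifnar1* and *Ifngr2* lie within 193 kb of chromosome 16 (chr16:91372783-91565623) with values between -0.16 and -0.08. In the Ifit group of chromosome 19 (chr19:34550694-34650009) the values of *Ifit1* and *Ifit2* were -0.25 and 0.46.

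Promoter sequences (RefSeq, GRCm38.p6, 250 bases before to 50 after the annotated start) matched 36 of the 44 members; those of *Dhx58*, *Oas2*, *Mx1*, *Mx2*, *Usp18*, *Zbp1*, *Rtp4* and *Parp14* were not used here. The ISRE, searched on both strands as GAAANNGAAA, occurred in 19 of the 36 genes (52.8%), against 3.99% of all 27025 genes with a promoter. The GAS, searched on both strands as TTCNNNGAA, occurred in 12 of the 36 (33.3%), against 9.55% of all genes. Among the 18 tested members with the ISRE letters, the median log2 fold change was -0.28, 1 passed lower (*Gbp2*) and 1 passed higher (*Ifitm3*). Among the 16 tested members without them, the median was -0.13, 5 passed lower and 1 passed higher (*Ifitm1*). Among the 12 tested members with the GAS letters the median was -0.08, with 2 passing lower and 1 higher, and among the 22 without them it was -0.34, with 4 passing lower and 1 higher. Members that were lower and members that were higher occurred both with and without the letters of either element, and a match is a description of the sequence, not a site of binding.

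Of the Ifitm neighbours, *Ifitm3* held 2 ISRE matches just after its start and between them 1 GAS match that shares 3 bases with the second, *Ifitm2* held 1 ISRE match, *Ifitm6* held 1 GAS match, and *Ifitm1* held neither. For *Ifitm1* and *Ifitm6* the RefSeq start used lies inside the GENCODE gene, which begins at chr7:140967221 (plus strand) and chr7:141017924 (minus strand). The sequence before those GENCODE starts was not searched. *Isg15* held 3 overlapping ISRE matches, and *Gbp2* held 1 on the other strand. These 6 promoters are printed from 250 bases before to 30 bases after the start, 5′ to 3′ on the strand of the gene, with ISRE and GAS matches in capitals, to set the Ifitm genes that differ in direction beside a promoter of the repeated ISRE type and that of a member that was lower. The windows are chr7:140967826-140968105 (plus strand) for *Ifitm1*, chr7:140955932-140956211 (minus strand) for *Ifitm2*, chr7:141010715-141010994 (minus strand) for *Ifitm3*, chr7:141016863-141017142 (minus strand) for *Ifitm6*, chr4:156200789-156201068 (minus strand) for *Isg15* and chr3:142620413-142620692 (plus strand) for *Gbp2*.
Ifitm1: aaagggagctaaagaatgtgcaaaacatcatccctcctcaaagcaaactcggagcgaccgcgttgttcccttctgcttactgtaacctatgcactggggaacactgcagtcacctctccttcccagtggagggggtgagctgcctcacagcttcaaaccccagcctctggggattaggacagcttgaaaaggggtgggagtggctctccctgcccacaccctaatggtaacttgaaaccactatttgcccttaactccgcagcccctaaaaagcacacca
Ifitm2: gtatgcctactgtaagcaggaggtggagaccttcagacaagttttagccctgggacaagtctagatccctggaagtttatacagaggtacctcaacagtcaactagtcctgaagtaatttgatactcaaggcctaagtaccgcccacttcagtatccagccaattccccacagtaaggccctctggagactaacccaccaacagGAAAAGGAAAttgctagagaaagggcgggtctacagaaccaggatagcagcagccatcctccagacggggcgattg
Ifitm3: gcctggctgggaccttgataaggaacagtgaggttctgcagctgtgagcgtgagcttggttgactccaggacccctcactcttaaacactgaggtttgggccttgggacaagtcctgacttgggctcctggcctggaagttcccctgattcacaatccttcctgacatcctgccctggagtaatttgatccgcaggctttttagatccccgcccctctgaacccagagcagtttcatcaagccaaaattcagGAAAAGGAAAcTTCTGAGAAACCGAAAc
Ifitm6: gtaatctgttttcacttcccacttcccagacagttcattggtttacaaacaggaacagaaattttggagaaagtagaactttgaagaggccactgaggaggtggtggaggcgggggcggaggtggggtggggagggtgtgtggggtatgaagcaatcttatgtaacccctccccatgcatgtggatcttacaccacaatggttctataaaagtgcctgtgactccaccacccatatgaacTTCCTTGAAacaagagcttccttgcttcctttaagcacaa
Isg15: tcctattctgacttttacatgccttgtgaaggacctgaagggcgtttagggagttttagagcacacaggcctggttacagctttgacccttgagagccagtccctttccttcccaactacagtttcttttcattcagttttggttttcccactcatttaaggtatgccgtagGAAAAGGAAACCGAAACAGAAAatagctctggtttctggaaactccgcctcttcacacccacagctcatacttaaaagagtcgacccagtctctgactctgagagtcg
Gbp2: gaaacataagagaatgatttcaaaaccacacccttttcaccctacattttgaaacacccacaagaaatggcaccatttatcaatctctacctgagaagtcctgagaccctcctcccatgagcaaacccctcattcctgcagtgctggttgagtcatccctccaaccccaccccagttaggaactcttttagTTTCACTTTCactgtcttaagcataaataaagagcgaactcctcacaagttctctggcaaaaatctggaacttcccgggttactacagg

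Genes of the same pathway outside the 44 members were described from further lists. Of 21 interferon genes, 19 were listed at 0 in all 4 libraries, among them *Ifnb1* and *Ifng*, and the others, *Ifnk* and *Ifnz*, were each above 0 in 1 library (0.131 FPKM in G-CSF replicate 1 and 0.059 FPKM in Control replicate 1). Interferon transcripts were thus not detectable at this depth in either group, apart from these values. Of 12 genes of receptor-proximal signalling, 6 passed, all lower (50%). For this list and those below, the shares of all genes were 23.9% passing and 11.4% passing lower. *Socs1*, a feedback inhibitor of Janus kinases, was at 41.7 and 38.5 FPKM without G-CSF and 28.7 and 29.3 FPKM with it (-0.47, adjusted p = 0.00544 in limma). *Ifnlr1*, the specific chain of the interferon-lambda receptor, was at 5.65 and 5.32 FPKM without G-CSF and 2.45 and 2.99 FPKM with it (-0.99, adjusted p = 0.00636 in limma). The kinase genes *Jak2* and *Tyk2*, of which TYK2 serves the type I receptor, had log2 fold changes of -0.38 and -0.30 (adjusted p = 0.00891 and 0.0103 in limma). These 4 genes were named for the smallest p in limma of their list. Both G-CSF libraries were below both Control libraries for each, which that choice favours, and for 32.6% of all genes.

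In the list of other interferon regulatory factors, which also holds *Irf2bp1*, *Irf2bp2* and *Prdm1*, 8 genes were tested and 3 passed, all lower (37.5%). *Irf5*, which acts downstream of Toll-like receptors, was at 136 FPKM in both Control libraries and 105 and 104 FPKM with G-CSF (-0.38, adjusted p = 0.00412 in limma). *Irf4* was at 31.2 and 28.2 FPKM without G-CSF and 21.5 and 19.5 FPKM with it (-0.53, adjusted p = 0.00736 in limma), and *Irf2*, a repressor at interferon-responsive promoters, had a log2 fold change of -0.23 (adjusted p = 0.024 in limma). Of 18 genes of upstream nucleic acid sensing, 4 passed (22.2%, near the 23.9% of all genes). All 4 were lower, beside 11.4% of all genes: *Samhd1* (-0.31), *Ifi204* (-0.47), *Trex1* (-0.26) and *Tlr7* (-0.45). *Samhd1*, which depletes nucleotides needed by viruses, was at 106 and 100 FPKM without G-CSF and 82.6 and 83.6 FPKM with it.

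Further type I interferon-stimulated genes numbered 43 tested, of which 7 passed lower and 1 higher (18.6% in all), with a median log2 fold change of -0.18 and an estimate below 0 for 35. *Samd9l* was at 39.7 and 36.6 FPKM without G-CSF and 26.5 and 25.2 FPKM with it (-0.56, adjusted p = 0.00454 in limma), *Slfn1* had a log2 fold change of -0.52, *Tdrd7* one of -0.44 and *Slfn2* one of -0.32. The gene higher with G-CSF was *Pnpt1* (0.23, adjusted p = 0.037 in limma), named after its value was seen. In this list too, Control replicate 1 was above Control replicate 2 for 32 of 43 genes and G-CSF replicate 1 above G-CSF replicate 2 for 28. Of the further interferon-gamma-induced GTPases and targets, 11 were tested and 6 passed, all lower (54.5%), with a median of -0.42. *Ciita*, the transactivator of MHC class II genes, was at 16.2 and 12.4 FPKM without G-CSF and 8.97 and 6.22 FPKM with it (-0.91, adjusted p = 0.0208 in limma), and *Gbp5*, *Irgm2* and *Gbp9* had log2 fold changes of -0.65, -0.42 and -0.79.

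Of 18 genes of MHC class I presentation, 8 passed, all lower (44.4%), with a median of -0.15. *H2-D1* was at 548 and 529 FPKM without G-CSF and 398 and 422 FPKM with it (-0.39, adjusted p = 0.00565 in limma), and *H2-T23* was at 78.9 and 68.6 FPKM without G-CSF and 52.7 and 51.2 FPKM with it (-0.50, adjusted p = 0.00725 in limma). *B2m*, the light chain shared by these molecules, had a log2 fold change of -0.25 and the transporter partner *Tapbp* one of -0.17. Taking the 7 further lists as 1, 35 of 110 genes tested passed (31.8%), 34 lower and 1 higher, beside 11.4% lower and 12.5% higher among all genes. Only 13 of these 35 passed whichever library was left out, and 0 of the 6 interferon-gamma-induced genes did, beside 1009 of the 2874 genes that passed in all. Of the 24 genes named from these lists as passing, *Irf2*, *Ifi204*, *Trex1*, *Tlr7*, *Pnpt1*, *Gbp5*, *Ciita*, *Irgm2*, *Gbp9*, *B2m* and *Tapbp* missed the threshold in limma with at least 1 of the 4 libraries left out, and so did the 11 passing genes that are not named; none of the 24 passed without the mean-variance trend (adjusted p from 0.0537 to 0.131 in limma).

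Markers of several myeloid cell types moved with G-CSF, and their part in the values of the members was not tested. Of 10 neutrophil markers tested, 8 passed, all lower, with a summed level of 77150 and 66766 FPKM without G-CSF and 51578 and 51699 FPKM with it; the most abundant, *S100a8*, was at 35613 and 30633 FPKM without G-CSF and 25812 and 25565 FPKM with it and was 1 of the 2 that did not pass (-0.36, adjusted p = 0.0886 in limma), and *Ly6g* was not analysed here. Of 5 neutrophil precursor markers, 4 passed higher, with sums of 869 and 728 FPKM without G-CSF and 1918 and 1801 FPKM with it and *Prtn3* the most abundant (273 and 224 FPKM without G-CSF, 691 and 637 FPKM with it); the fifth, *Fcnb*, was at 57.1 and 39.3 FPKM without G-CSF and 36.6 and 31.0 FPKM with it (-0.49, adjusted p = 0.0815 in limma) and passed in at least 1 fit with a library left out (lowest adjusted p = 0.00907 in limma). Of 10 dendritic cell markers, 5 passed, all lower, *Cd74* being the most abundant at 2016 and 1740 FPKM without G-CSF and 1153 and 940 FPKM with it. Several dendritic cell markers are themselves MHC class II genes and targets of interferon-gamma. Of 8 macrophage markers, 5 passed, all lower (sums 526 and 542 FPKM without G-CSF, 433 and 447 FPKM with it), with *Cd68* the most abundant at 353 and 346 FPKM without G-CSF and 307 and 303 FPKM with it.

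Monocyte markers were more even, with 1 of 7 passing higher and 1 lower, sums of 1494 and 1535 FPKM without G-CSF and 1390 and 1448 FPKM with it, and *Ly6c2* the most abundant at 1105 and 1148 FPKM without G-CSF and 1000 and 1066 FPKM with it. Of 6 mast cell and basophil markers, 4 passed lower (sums 129 and 131 FPKM without G-CSF, 81.4 and 90.0 FPKM with it; *Mcpt8* the most abundant at 57.4, 56.8, 34.9 and 39.8 FPKM in the same order). Of 4 eosinophil markers tested, 3 passed lower (sums 438 and 479 FPKM without G-CSF, 250 and 205 FPKM with it; *Prg2* the most abundant at 223, 292, 177 and 136 FPKM). Plasmacytoid dendritic cell markers, of which 3 of 8 were tested and 0 passed in limma (0 with an unadjusted p under 0.05), summed to 5.50 and 4.96 FPKM without G-CSF and 4.82 and 4.29 FPKM with it, with *Tcf4* the most abundant at 2.37, 2.24, 2.88 and 2.67 FPKM. T cell markers summed to 4.03 and 3.71 FPKM without G-CSF and 2.54 and 2.05 FPKM with it (2 of 3 tested passed, both lower; *Cd3d* at 1.53, 1.57, 0.859 and 0.570 FPKM) and B cell markers to 5.51 and 4.73 FPKM without G-CSF and 5.11 and 3.76 FPKM with it (1 of 3 tested passed, lower; *Cd79b* at 3.24, 3.06, 3.97 and 2.84 FPKM). NK cell, erythroid and hepatocyte markers were below the filter, with sums of at most 0.105, 1.58 and 0.169 FPKM, *Klrb1c*, *Hba-a1* and *Serpina1a* the most abundant, and *Ncr1* and *Klra8* listed at 0. Of the 34 markers that passed, 20 did so whichever library was left out: 5 of 8 for neutrophils, 4 of 4 for their precursors, 4 of 5 for dendritic cells, 3 of 4 for mast cells and basophils, 3 of 3 for eosinophils, 1 of 2 for monocytes and none of the 5 for macrophages, 2 for T cells and 1 for B cells. Without the mean-variance trend 4 of the 34 passed, *Camp* lower, *Ear6* lower and *Mpo* and *Ctsg* higher.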

How the data were processed

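RNA-seq was performed on 2 Control and 2 G-CSF cultures of *in vitro* MDSCs with stranded mRNA libraries read over 75 bases from a single end. The authors deposited 1 table per library with 24346 genes each, whose values were taken as FPKM because low values rise stepwise, by less the longer the transcript. The submitters' processing notes name TopHat2 2.0.13, Bowtie2 2.2.3, SAMtools 0.1.19, Cufflinks 2.2.1 and build mm10; the use of strand in counting is not given in the sources used here. Such values depend on transcript length, on the total of each library and on how reads shared by paralogs were assigned.

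Reads were estimated from these steps with GENCODE M21 (GRCm38) transcript lengths, shortened by 210 bases; 66.1% to 68.0% of low values then came within 0.05 reads of whole reads (10.0% by chance). Of the gene names, 23310 matched directly and 762 by a synonym, and 274 without a length were not tested. Genes were kept with transcripts over 200 bases, a minimum of 10 reads in each of 2 libraries and a total of 15, and were fitted on log2(FPKM + 0.1) with limma 3.58.1 in R 4.3.3 (lmFit, eBayes with trend, no replicate block), and p-values were adjusted by Benjamini-Hochberg over the 12026 genes tested. Fold changes on this scale understate those of low genes. The fit was also run on simulated libraries with planted differences larger than the estimate of any member. That run does not show how well differences of the members' size are found. The thresholds of an adjusted p under 0.05 and a fold change over 2 follow the study's methods. Alternatives were other filters, pseudocounts of 1 and 0.01, upper-quartile and median-ratio scaling, no trend, a replicate block and each library left out.

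The members, the lists of roles, pathways and markers and the tests were chosen with earlier results of these data known, so no test was made over a list. Values per library are given for members with an adjusted p under 0.05, the receptor chains, *Stat2*, *Irf7*, *Irf9*, *Isg15*, *Ifit1*, *Ifit3*, *Ifitm3*, *Mx1*, *Oas2*, *Rsad2*, *Usp18* and *Cxcl10*, for at most 4 genes per further list (smallest p) and for the most abundant gene of each marker list; *Mx2*, *Bst2*, *Ifitm2*, *Ifnk*, *Ifnz*, *Pnpt1* and *Fcnb* were added after their values were seen. Of the listed genes, *Rnf213*, *Ifi209*, *Ifi211*, *Ifi213*, *Ly6g*, *Trac* and *Hbb-bt* were not analysed here, and 1 gene of the signalling list is not reported here. To describe shared reads, 75-base windows of the transcripts of each member were looked up in the transcripts of other genes. Tables and figures were made with matplotlib 3.10.9, scipy 1.17.1, pandas 2.3.3 and numpy 2.4.6 in python 3.11.15.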

Additional observations from a re-analysis of the deposited data

How the results depend on the processing

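Between 7 and 9 members passed under other filters, pseudocounts and scalings, all of them among the 9, with a median log2 fold change from -0.28 to -0.22 and none beyond 2-fold; without a filter, when all 44 could be tested, 7 passed and 10% of 16234 genes did. Without the mean-variance trend, 0 members passed (0 lower, 0 higher), as did 51 genes in all; the cause was not tested. With 1 library left out, 5 to 13 members passed, 2 to 11 of them lower and 2 to 3 higher, 0 to 2 were also beyond 2-fold, the median ran from -0.33 to -0.13, and 1445 to 1903 genes passed; fewer samples entered these fits. With a library left out, the estimates of 8 of the 41 members changed sign, none of which passed with all libraries or with 1 left out: *Ifit1* ran from -0.83 to 0.32 (0.02 without G-CSF replicate 2), *Oas2* from -0.45 to 0.43 (0.15 without G-CSF replicate 2) and *Ifngr1* from -0.058 to 0.011, the highest values of *Ifit1* and *Oas2* without Control replicate 1 and that of *Ifngr1* without G-CSF replicate 2. *Rtp4* ran from -0.84 to 0.22, *Eif2ak2* from -0.02 to 0.16, *Ifih1* from -0.07 to 0.02, *Bst2* from -0.18 to 0.01 and *Trim30a* from -0.18 to just above 0. The replicate numbers are not stated to pair the cultures, and the deviations of same-numbered libraries had r = 0.236 over 12026 genes with only 2 pairs. With the replicate block, 23 of the 41 members passed, 19 lower and 4 higher, 0 of them beyond 2-fold, with 33.3% of all genes. Estimated reads were at most 81 per library for *Ifit1*, *Oasl1*, *Rsad2*, *Isg15*, *Rtp4*, *Xaf1* and *Cxcl10*, and 3 members were below the filter.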
